A study of Homo sapiens with 4 samples.

Results

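The G1 cyclins, their kinases and the inhibitors of those kinases were followed as a set of 10 genes in single-cell RNA-seq of LNCaP prostate cancer cells before and after resistance to enzalutamide. The members were picked by symbol among the 33538 genes of the count matrices. They are the D-type cyclin genes CCND1, CCND2 and CCND3, the E-type cyclin genes CCNE1 and CCNE2, the kinase genes CDK4 and CDK6, the CIP/KIP inhibitor genes CDKN1A and CDKN1B, and CDKN2C of the INK4 class. All 10 symbols matched 1 gene each. As a mean over the 4 libraries, 5 of the members (CCND1, CDK4, CDKN1A, CDKN1B and CDKN2C) had at least 10 UMIs per 1000000 UMIs of all genes (CPM), and 9 had at least 1 CPM. CCND2 was the member below both limits.

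These genes act at the commitment to a new cell cycle. D-type cyclins bind CDK4 or CDK6 and E-type cyclins bind CDK2, and both kinds of complex phosphorylate the retinoblastoma protein, which then releases E2F transcription factors that switch on the genes of DNA replication. INK4 proteins block CDK4 and CDK6 alone, while the CIP/KIP proteins p21 (CDKN1A) and p27 (CDKN1B) act on a wider range of cyclin-CDK complexes. In prostate cancer cells androgens promote passage through G1, which makes these genes a common readout of antiandrogen treatment.

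LNCaP is an androgen-responsive human line from a lymph node metastasis of prostate cancer, and enzalutamide is an antiandrogen drug used against prostate cancer. The study compared LNCaP cells given 0.1% DMSO for 48 h (LNCaP), LNCaP cells given 10 µM enzalutamide for 48 h (LNCaP-ENZ48) and a pair of resistant sublines of LNCaP. Selection for growth under drug gave both sublines, with stepwise enzalutamide doses for RES-A and the related antiandrogen RD-162 for RES-B, and 10 µM enzalutamide was kept on them afterwards. There was 1 library per group, made from living cells sorted before capture, so no difference between groups has a replicate check and no test was run.

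After the study's limits on genes, UMIs and mitochondrial share, 1782 cells of LNCaP, 4315 after 48 h of enzalutamide, 4569 of RES-A and 4061 of RES-B remained, with 50208831 to 60838227 UMIs per library. LNCaP cells were the deepest, with a median of 27079.5 UMIs against 12138 to 13676 in the other libraries. Cell barcodes shared by a pair of libraries numbered 2 to 9. The luminal prostate markers KRT8, KRT18 and HOXB13 were each above 10 CPM in every library, while none of the basal, stromal, endothelial or leukocyte markers reached that level and each of these lists summed to at most 3.70 CPM. KRT5, TP63, COL1A2, CDH5, PTPRC and CD3E had 0 UMIs in every library.

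Levels are CPM over the summed cells of a library, with exact Poisson 95% intervals. Ratios are log2 ratios of CPM with exact conditional binomial 95% intervals. Both intervals cover counting error only. They leave out the differences that replicate cultures would show and any spread among cells beyond counting noise. A pair of libraries set apart by them is thus a statement about those libraries. The 3 comparisons with LNCaP share that library. Because counting was from the 3′ end without a correction for transcript length, levels were compared between libraries and not between genes. In such sums, less RNA of a gene per cell and fewer cells with it cannot be told apart. A second set of levels was therefore taken from cells with 0 UMIs of both MKI67 and TOP2A, genes of cycling cells. They made up 61.3% of the LNCaP library and 79.3% of the 48 h library, against 67.9% of RES-A and 68.5% of RES-B. When every cell was thinned to 5000 UMIs the shares were 78.5%, 86.0%, 76.4% and 77.4% in the same order, and LNCaP was no longer the lowest.

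The promoters of 3 members that stood apart below are shown first: CDKN1A, with the widest range over the libraries among the 5 members of at least 10 CPM, and CDK4 and CCNE1, both higher in RES-A. RefSeq windows (GRCh38.p14) were found for 7 of the 10 members. Each run is the 250 bases before the start RefSeq gives the gene, 5′ to 3′ on the strand of the gene. Capitals mark GC boxes (GGGCGG on either strand) in all 3, and E-boxes (CACGTG) in CDK4. The CDKN1A window is chr6:36678464-36678713 (plus strand), the CDK4 window chr12:57752311-57752560 (minus strand) and the CCNE1 window chr19:29811741-29811990 (plus strand).
CDKN1A: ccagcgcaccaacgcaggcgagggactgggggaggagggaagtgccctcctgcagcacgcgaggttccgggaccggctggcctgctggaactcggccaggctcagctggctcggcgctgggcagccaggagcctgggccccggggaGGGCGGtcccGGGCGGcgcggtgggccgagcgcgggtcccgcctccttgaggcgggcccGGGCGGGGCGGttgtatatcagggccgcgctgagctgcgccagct
CDK4: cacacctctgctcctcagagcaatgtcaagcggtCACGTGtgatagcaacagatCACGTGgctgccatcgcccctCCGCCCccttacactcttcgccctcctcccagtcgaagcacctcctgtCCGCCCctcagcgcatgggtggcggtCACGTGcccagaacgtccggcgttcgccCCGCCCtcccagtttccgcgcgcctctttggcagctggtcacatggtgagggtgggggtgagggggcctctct
CCNE1: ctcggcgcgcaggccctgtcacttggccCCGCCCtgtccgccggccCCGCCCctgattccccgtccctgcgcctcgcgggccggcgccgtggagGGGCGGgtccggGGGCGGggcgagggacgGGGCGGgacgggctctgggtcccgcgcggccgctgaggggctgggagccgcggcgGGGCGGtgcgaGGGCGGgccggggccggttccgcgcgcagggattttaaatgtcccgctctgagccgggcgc
GC boxes were matched 4 times in the CDKN1A window, 3 times in that of CDK4 and 7 times in that of CCNE1, and at least 1 was present in 42.6% of all 34788 such windows. The last 2 matches in the CDKN1A window overlap by 1 base. The E-box was matched 3 times in the CDK4 window and was present in 6.31% of all windows. None of the 3 windows held TTTNNCGC, a core of E2F sites, which was found on either strand in 5.89% of all windows. These matches describe letters in a window and not sites in use.

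CCND1, the D-type cyclin that carries mitogenic signals to CDK4 and CDK6, was lower in both resistant lines. Its level was 272 CPM (95% interval 267 to 276) in LNCaP, 263 (259 to 267) in LNCaP-ENZ48, 186 (183 to 190) in RES-A and 149 (146 to 152) in RES-B. The 48 h library lay close to the control and RES-B was the lowest. The log2 ratio to LNCaP was -0.54 (-0.58 to -0.51) in RES-A and -0.87 (-0.91 to -0.83) in RES-B. After 48 h of enzalutamide it was -0.046 (-0.079 to -0.013), a direction that turned to 0.050 and 0.056 when libraries were scaled by TMM or DESeq2 size factors. RES-B was also below RES-A, by a log2 ratio of -0.32 (-0.37 to -0.28). The order was the same in cells without MKI67 or TOP2A UMIs, with 302 CPM in LNCaP, 271 after 48 h, 204 in RES-A and 162 in RES-B.

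CCND1 lies on chromosome 11 (69641156 to 69654474, plus strand, GRCh38, GENCODE 44) with LTO1 overlapping it on the other strand. The median log2 ratio of the 50 nearest protein-coding genes of at least 10 CPM, 25 on each side, was 0.068 in RES-A and -0.26 in RES-B, against 0.020 and 0.12 over all such genes. The lower CCND1 level of RES-B thus went with lower levels of its neighbours, of which 15 of 50 were above the LNCaP level, but CCND1 lay further from 0 than their median. In RES-A 29 of the 50 neighbours were above LNCaP while CCND1 was below it.

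CCND3, a D-type cyclin with the same kinase partners, ran the other way. Its level was 6.87 CPM (6.17 to 7.64) in LNCaP, 7.91 (7.22 to 8.65) in LNCaP-ENZ48, 11.5 (10.6 to 12.4) in RES-A and 12.8 (11.9 to 13.8) in RES-B. Both resistant lines were above both other libraries, and the intervals of LNCaP and LNCaP-ENZ48 overlapped. The log2 ratio to LNCaP was 0.74 (0.55 to 0.94) in RES-A and 0.90 (0.71 to 1.09) in RES-B. In cells without MKI67 or TOP2A UMIs the ratios were 0.67 (0.41 to 0.93) and 0.88 (0.63 to 1.14). CCND2, the remaining D-type cyclin, had 0 UMIs in LNCaP, LNCaP-ENZ48 and RES-B and 3 UMIs in RES-A. A count of 0 allows a level of up to 0.0598, 0.0493 and 0.0571 CPM in those libraries at 3 UMIs each, so no ratio is given.

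CCNE2, an E-type cyclin that peaks at the start of DNA replication, was higher in both resistant lines. It measured 3.92 CPM (3.39 to 4.51) in LNCaP, 4.87 (4.33 to 5.45) in LNCaP-ENZ48, 9.47 (8.69 to 10.3) in RES-A and 9.59 (8.77 to 10.5) in RES-B. Over all kept cells the resistant lines overlapped each other and stood clear of the other 2 libraries. The log2 ratios to LNCaP were 1.27 (1.03 to 1.51) and 1.29 (1.05 to 1.53), with RES-B against RES-A at 0.018 (-0.16 to 0.20). In cells without MKI67 or TOP2A UMIs the levels were 2.29, 2.70, 6.35 and 6.80 CPM, and the ratios to LNCaP were 1.47 (1.07 to 1.88) in RES-A and 1.57 (1.17 to 1.98) in RES-B. The absence of those UMIs is a stricter demand on the deeper LNCaP cells. In thinned cells judged after thinning the levels were 3.15, 2.86, 7.74 and 6.81 CPM in the same order, with 22 UMIs in LNCaP. The 50 neighbours of CCNE2 had medians of -0.037 and 0.066 in these comparisons.

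CCNE1, the other E-type cyclin, was higher over all kept cells in RES-A alone. It measured 7.33 CPM (6.60 to 8.12) in LNCaP, 8.07 (7.37 to 8.82) in LNCaP-ENZ48, 11.4 (10.5 to 12.3) in RES-A and 7.19 (6.48 to 7.95) in RES-B. LNCaP, LNCaP-ENZ48 and RES-B overlapped. The log2 ratio to LNCaP was 0.64 (0.45 to 0.82) in RES-A and -0.028 (-0.24 to 0.18) in RES-B, and RES-B against RES-A gave -0.66 (-0.85 to -0.48). In cells without MKI67 or TOP2A UMIs the RES-A ratio was 0.48 (0.25 to 0.72). The pair of E-type cyclins thus differed in RES-B, where CCNE2 was 2.44 times and CCNE1 0.981 times the LNCaP level.

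CDK4, the kinase partner of the D-type cyclins, was highest in RES-A. It measured 91.4 CPM (88.8 to 94.1) in LNCaP, 76.5 (74.4 to 78.8) in LNCaP-ENZ48, 138 (135 to 141) in RES-A and 105 (102 to 107) in RES-B. No intervals overlapped among the 4 libraries. The log2 ratio to LNCaP was -0.26 (-0.31 to -0.20) after 48 h of enzalutamide, 0.60 (0.54 to 0.65) in RES-A and 0.19 (0.14 to 0.25) in RES-B. In cells without MKI67 or TOP2A UMIs these were -0.23 (-0.30 to -0.15), 0.56 (0.49 to 0.63) and 0.20 (0.12 to 0.27). CDK4 lies on chromosome 12 (57747727 to 57756013, minus strand), where TSPAN31 and MARCHF9 overlap it on the other strand. Its 50 neighbours had medians of -0.13, 0.27 and 0.31 in the same comparisons. In RES-B the neighbours' median was above the CDK4 ratio, and in RES-A it was below it.

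CDK6, the second kinase of the D-type cyclins, was counted rarely, with 33 UMIs in LNCaP, 21 after 48 h of enzalutamide, 166 in RES-A and 53 in RES-B. In that order these give 0.657 CPM (0.452 to 0.923), 0.345 (0.214 to 0.528), 2.90 (2.47 to 3.37) and 1.01 (0.755 to 1.32). RES-A stood clear of the other 3 libraries. The log2 ratio of RES-A to LNCaP was 2.14 (1.59 to 2.72), and that of RES-B to RES-A was -1.52 (-2.00 to -1.07). LNCaP-ENZ48 was below LNCaP at -0.93 (-1.79 to -0.10), and the interval of RES-B to LNCaP, 0.62 (-0.037 to 1.29), spanned 0. In cells without MKI67 or TOP2A UMIs the ratio of RES-A to LNCaP was 2.20 (1.42 to 3.06). There the intervals of LNCaP-ENZ48, -0.68 (-1.77 to 0.42), and RES-B, 0.65 (-0.28 to 1.63), spanned 0. The 166 UMIs of RES-A are few, and CDK6 had a UMI in 60 of 4569 RES-A cells after thinning. The median of its 50 neighbours was 0.014 in RES-A.

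CDKN1A encodes p21, the inhibitor that p53 induces, and was lowest in RES-B by the widest margin among the members of at least 10 CPM. It measured 57.8 CPM (55.7 to 59.9) in LNCaP, 43.9 (42.3 to 45.6) in LNCaP-ENZ48, 55.0 (53.1 to 57.0) in RES-A and 19.2 (18.0 to 20.4) in RES-B. LNCaP and RES-A overlapped, LNCaP-ENZ48 was between them and RES-B. RES-B held 0.332 times the LNCaP level, a log2 ratio of -1.59 (-1.69 to -1.49), and 0.349 times the RES-A level. After 48 h of enzalutamide the ratio was -0.40 (-0.47 to -0.32), and in RES-A it was -0.070 (-0.14 to 0.0028). In cells without MKI67 or TOP2A UMIs the RES-B ratio to LNCaP was -1.42 (-1.55 to -1.29), and with every cell given the same weight in that population it was -1.18.

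CDKN1A and CCND3 lie on the same arm of chromosome 6, CDKN1A at 36676460 to 36687337 (plus strand) and CCND3 at 41934934 to 42050357 (minus strand), and their neighbours overlap in part. In RES-B against LNCaP the median log2 ratio was 0.57 around CDKN1A, with 42 of 50 genes above 0, and 0.63 around CCND3, with 44 of 50 above 0. CCND3 at 0.90 was on the side of its neighbours, while CDKN1A at -1.59 was on the opposite side. Around both genes the RES-A median was 0.14. DNA copy number was not measured in these libraries, and its part in these levels was not tested.

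CDKN1B encodes p27, the CIP/KIP inhibitor that accumulates in resting cells, and was lowest in RES-A. It measured 34.5 CPM (32.9 to 36.2) in LNCaP, 33.1 (31.7 to 34.6) in LNCaP-ENZ48, 20.8 (19.6 to 22.0) in RES-A and 29.5 (28.1 to 31.0) in RES-B. LNCaP and LNCaP-ENZ48 overlapped, and RES-A stood clear of the other 3 libraries. The log2 ratio to LNCaP was -0.73 (-0.84 to -0.63) in RES-A and -0.23 (-0.33 to -0.13) in RES-B. In cells without MKI67 or TOP2A UMIs RES-A was again lower, at -0.62 (-0.77 to -0.47), while the interval of RES-B, -0.13 (-0.27 to 0.0030), spanned 0. Its 50 neighbours on chromosome 12 had a median of 0.20 in RES-A, on the other side of 0. GPR19 overlaps CDKN1B on the other strand.

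CDKN2C encodes p18, an INK4 inhibitor of CDK4 and CDK6. In all kept cells it measured 9.86 CPM (9.01 to 10.8) in LNCaP, 10.5 (9.67 to 11.3) in LNCaP-ENZ48, 13.0 (12.1 to 14.0) in RES-A and 13.8 (12.9 to 14.9) in RES-B. In cells without MKI67 or TOP2A UMIs it measured 4.35 (3.63 to 5.17), 6.94 (6.21 to 7.73), 7.75 (6.88 to 8.70) and 8.79 (7.82 to 9.84). In all kept cells the LNCaP interval overlapped that of LNCaP-ENZ48, while LNCaP stood apart from every other library in cells without MKI67 or TOP2A UMIs. The log2 ratios to LNCaP there were 0.67 (0.37 to 0.98) in LNCaP-ENZ48, 0.83 (0.53 to 1.14) in RES-A and 1.01 (0.71 to 1.32) in RES-B, against 0.087 (-0.085 to 0.26), 0.40 (0.24 to 0.57) and 0.49 (0.32 to 0.66) in all kept cells. LNCaP cells are deeper, so the absence of MKI67 and TOP2A UMIs is a stricter demand on them. With cells judged after thinning the 3 ratios were 0.46, 0.69 and 0.78. In all kept cells the 50 neighbours of CDKN2C on chromosome 1 had a median log2 ratio to LNCaP of -0.062 in RES-A. In RES-B it was 0.36, with 44 of the 50 above LNCaP.

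**Figure D1:**
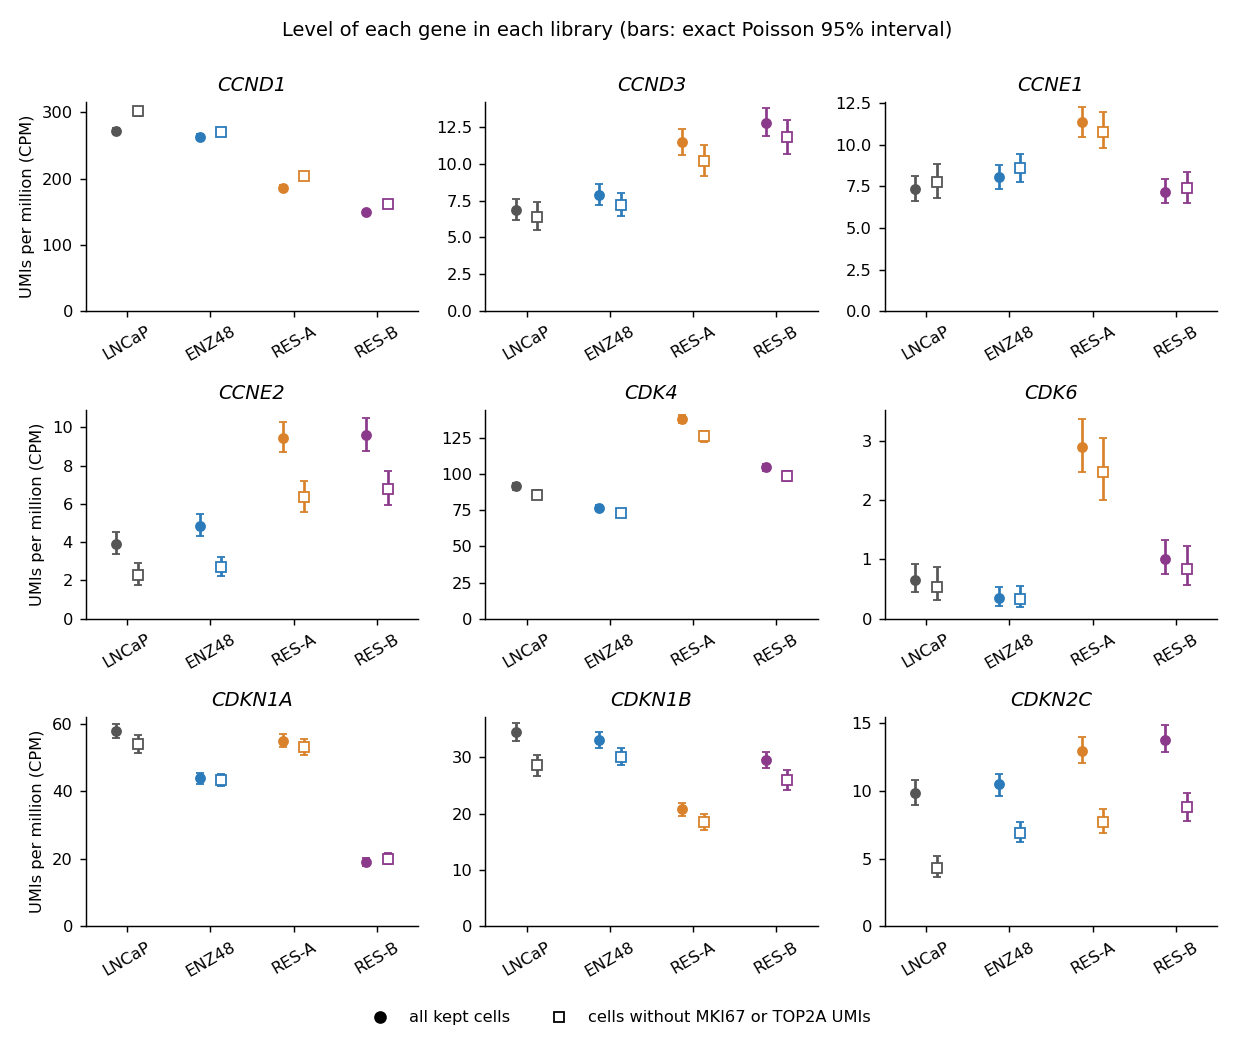
Level of 9 of the genes in each library, in CPM (vertical axis, starting at 0 with its own scale in each panel). Circles are all kept cells, open squares are cells without MKI67 or TOP2A UMIs, and bars are exact Poisson 95% intervals of 1 library. CCND1 is highest in LNCaP at 272 CPM and lowest in RES-B at 149, CDKN1A is lowest in RES-B at 19.2, and the open squares of CDKN2C lie below its circles in every library. CCND2, with 3 UMIs in RES-A and none elsewhere, is left out.

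The counts of members set apart by at least 1.5-fold were read against the share of all genes beyond the same fold. Among the 7460 genes whose mean was 10 CPM or more, 1.01% were higher and 3.22% lower by that fold in LNCaP-ENZ48 against LNCaP, and 0 of the 5 members were in either direction. In RES-A against LNCaP 11.3% of genes were higher and 11.5% lower, with 1 member higher (CDK4) and 1 lower (CDKN1B). Under TMM scaling 0 members were higher, with CDK4 at 0.54, and 2 were lower, CCND1 being the other at -0.60, and under DESeq2 size factors 0 were higher, with CDK4 at 0.56. In RES-B against LNCaP 14.2% were higher and 8.26% lower, with 0 members higher and 2 lower (CCND1 and CDKN1A). In RES-B against RES-A 12.2% were higher and 5.83% lower, with 0 members higher and 1 lower (CDKN1A). CDK4 in RES-A lay just past the limit, at 1.51-fold, and CCND1 in RES-A just short of it at 0.686 times the LNCaP level. With 5 members these counts are too few to set the group apart from other genes.

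With the limit lowered to 1 CPM, 12627 genes and 9 members were compared. In LNCaP-ENZ48 against LNCaP 2.72% of genes were higher and 5.34% lower, with 0 members higher and 1 lower (CDK6). In RES-A against LNCaP 16.1% were higher and 14.9% lower, with 5 members higher (CCND3, CCNE1, CCNE2, CDK4 and CDK6) and 1 lower (CDKN1B). In RES-B against LNCaP 17.8% were higher and 11.6% lower, with 3 members higher (CCND3, CCNE2 and CDK6) and 2 lower (CCND1 and CDKN1A). In RES-B against RES-A 14.6% were higher and 9.34% lower, with 0 members higher and 3 lower (CCNE1, CDK6 and CDKN1A). The interval of CDK6 in RES-B against LNCaP, 0.62 (-0.037 to 1.29), spanned 0. CDK4 in RES-A fell short of 1.5-fold under TMM and DESeq2 scaling. These counts of 9 members are again too few to set the group apart from other genes.

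**Figure D2:**
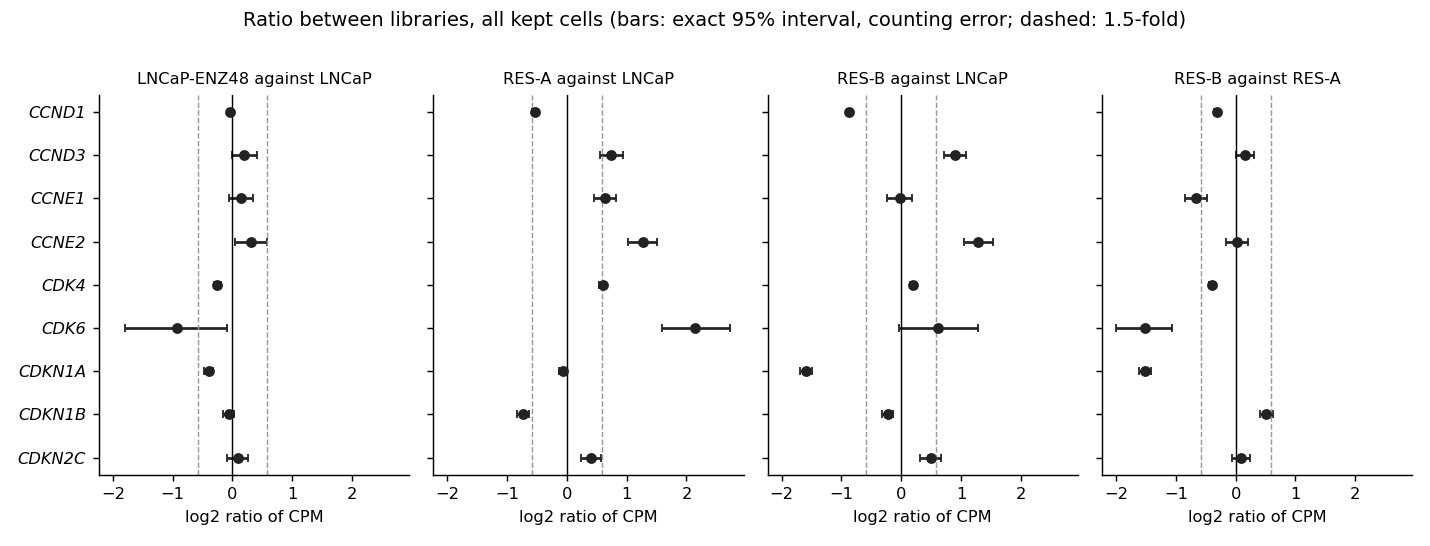
Log2 ratio of CPM between libraries (horizontal axis) for 9 of the genes in all kept cells, 1 panel per comparison. Points are ratios, bars exact 95% intervals for counting error, and dashed lines 1.5-fold in either direction. The points of LNCaP-ENZ48 lie within 1.5-fold apart from CDK6 at -0.93, and the widest distances are CDK6 at 2.14 in RES-A and CDKN1A at -1.59 in RES-B.

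**Figure D3:**
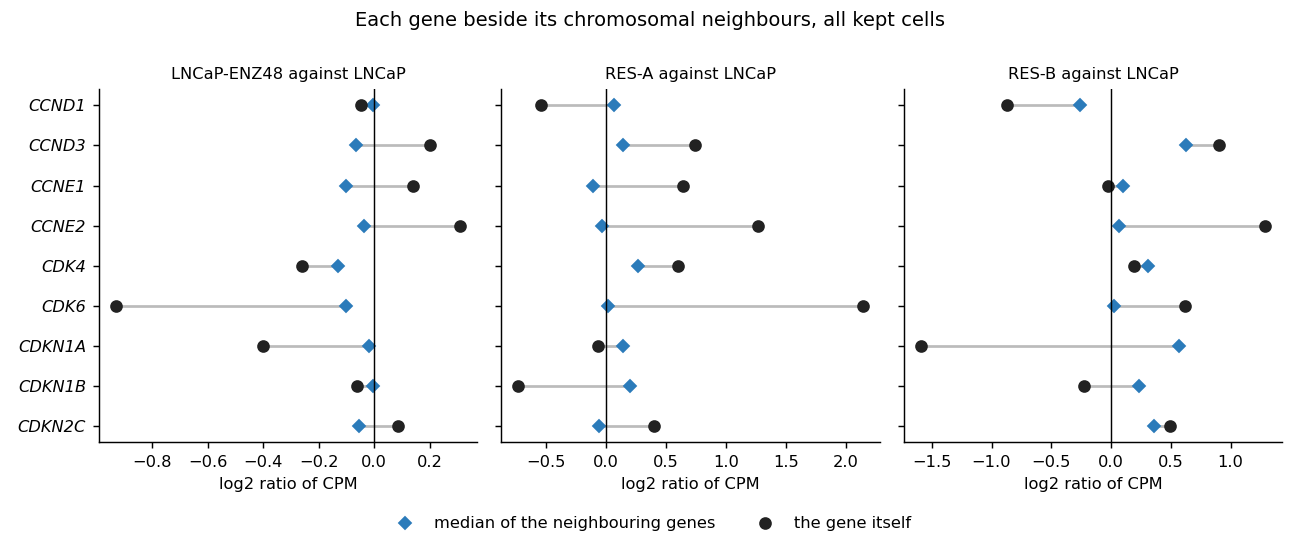
Log2 ratio of CPM of each gene (circles) beside the median of its 50 nearest protein-coding genes of at least 10 CPM (diamonds), in the 3 comparisons with LNCaP, which share the LNCaP library. The horizontal axis differs between panels. In RES-B the CDKN1A circle at -1.59 and its diamond at 0.57 are on opposite sides of 0, as are those of CDKN1B in RES-A at -0.73 and 0.20.

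Cells were next set apart by called phase within each library, after thinning to 5000 UMIs, with CCNE2 left out of the S phase list. The calls are ranges of a score and not cell types, and 20.5% to 24.7% of cells lay within 0.05 of a limit between phases. No cell was left out by thinning. S phase was called in 11.8% of cells in LNCaP, 8.20% after 48 h of enzalutamide, 16.9% in RES-A and 10.8% in RES-B. G2/M was called in 17.6%, 10.8%, 17.1% and 15.8% in the same order. RNA free in the droplets was not assessed, since the libraries hold no cell type that lacks these genes.

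CCNE2 was higher in S than in G1 in all 4 libraries. The log2 ratio of S to G1 was 2.04 (0.79 to 3.24) in LNCaP, 3.13 (2.47 to 3.78) in LNCaP-ENZ48, 2.86 (2.41 to 3.32) in RES-A and 2.53 (2.04 to 3.02) in RES-B. The LNCaP value rests on 11 UMIs in S. Without thinning it was 2.99 (2.54 to 3.46) from 101 UMIs, the highest of the 4 where the thinned one was the lowest, with the others at 2.92, 2.68 and 2.30, so no order of the libraries is read from these ratios. In cells called G1 the level was 2.54, 2.52, 4.31 and 5.30 CPM in the same order, so the resistant lines were also higher there. CCNE1 was higher in S than in G1 in RES-A, at 1.15 (0.74 to 1.54), and in RES-B, at 0.84 (0.14 to 1.49). The interval spanned 0 in LNCaP, at -0.74 (-2.24 to 0.47), and in LNCaP-ENZ48, at -0.23 (-1.27 to 0.66), where S phase cells held 6 and 11 CCNE1 UMIs. Without thinning these turned to 0.17 (-0.27 to 0.58) from 58 UMIs and 0.32 (-0.11 to 0.72) from 57 UMIs, so no direction is given for CCNE1 there, while RES-A at 1.15 and RES-B at 0.83 stayed above 0.

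CDKN2C was higher in G2/M than in G1 in every library, at 2.14 (1.38 to 2.90) in LNCaP, 1.91 (1.45 to 2.36) in LNCaP-ENZ48, 1.87 (1.48 to 2.26) in RES-A and 1.86 (1.44 to 2.27) in RES-B. In S it was above G1 in LNCaP-ENZ48, at 1.58 (1.02 to 2.12), in RES-A, at 1.00 (0.53 to 1.46), and in RES-B, at 1.49 (0.97 to 1.99). The LNCaP interval, 0.68 (-0.66 to 1.83), spanned 0 with 8 UMIs in S, and without thinning it was 1.23 (0.80 to 1.64), above 0 as in the other libraries. CDKN1B was also higher in G2/M, with log2 ratios from 0.56 in RES-A to 1.24 in LNCaP and all 4 intervals above 0, and its S phase intervals all spanned 0. CDK4 was higher in S than in G1 in all 4 libraries, from 0.45 in RES-A to 0.90 in LNCaP-ENZ48. CCND1 was lower in G2/M than in G1 in all 4 libraries, from -0.53 in LNCaP to -0.23 in LNCaP-ENZ48.

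CDKN1A had no common order of phases. Its log2 ratio of S to G1 was 0.63 (0.26 to 0.98) in LNCaP and 0.49 (0.18 to 0.78) in LNCaP-ENZ48 but -0.43 (-0.68 to -0.18) in RES-A, and the RES-B interval, -0.44 (-0.94 to 0.026), spanned 0. In RES-B its G2/M level was below that of G1, at -1.18 (-1.72 to -0.69). In cells with a MKI67 or TOP2A UMI after thinning, CDKN1A was at 78.1 CPM in LNCaP against 51.2 in cells without, and in RES-B at 17.4 against 23.9. Without thinning the same pairs were 63.4 against 53.9 and 17.5 against 20.1 CPM. The intervals of these contrasts leave out the spread of CDKN1A among cells, which is given below.

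**Figure D4:**
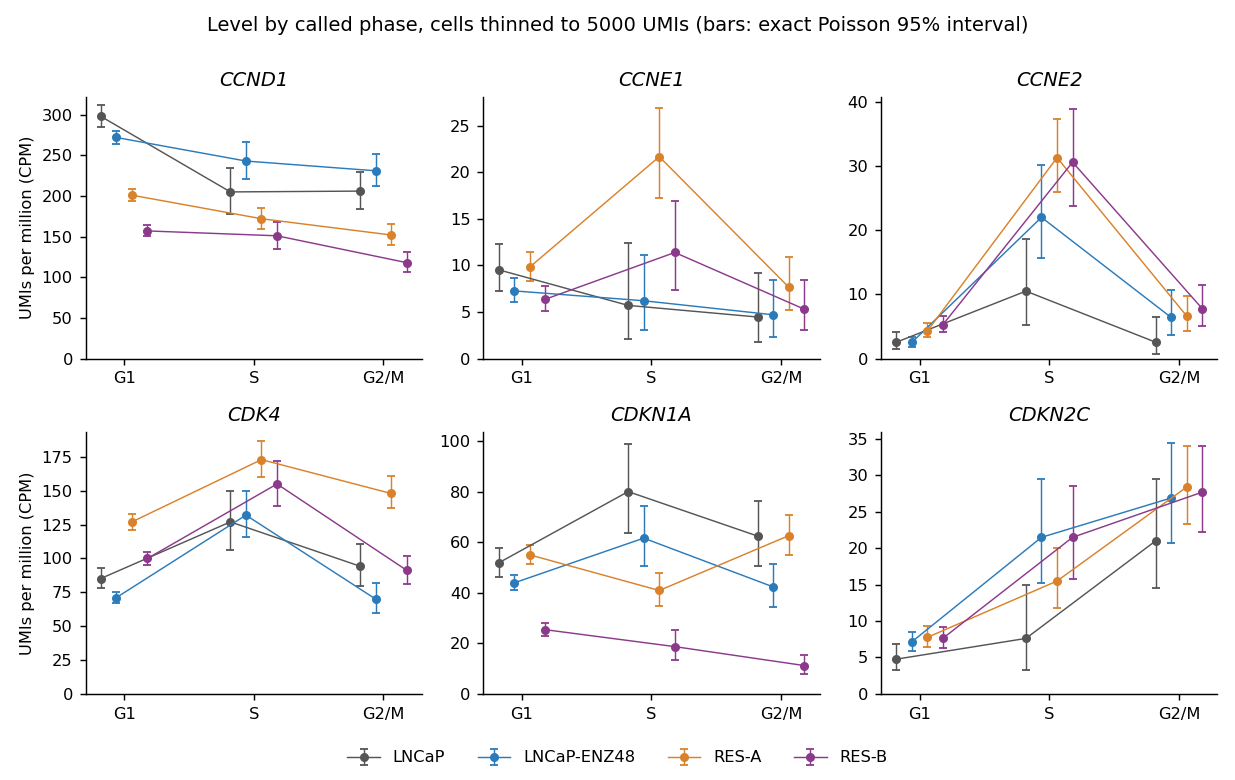
Level of 6 genes in cells called G1, S and G2/M (horizontal axis), in CPM of cells thinned to 5000 UMIs, with exact Poisson 95% intervals and 1 line per library. CCNE2 is highest in S in each library, CDKN2C is highest in G2/M in each library, and CDKN1A in S lies above its G1 level in LNCaP at 80.0 CPM and below it in RES-A at 40.9 CPM.

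CDKN1A also varied most from cell to cell. Among cells thinned to 5000 UMIs, its Fano factor (variance over mean, 1 for pure counting noise) was 2.51 in LNCaP, 2.95 after 48 h of enzalutamide, 1.76 for RES-A and 2.76 for RES-B, and from 0.536% to 0.925% of genes of at least 10 CPM had a higher value. The other members with UMIs in a library lay between 0.959 and 1.27. At least 1 CDKN1A UMI was found in 17.5% of cells in LNCaP, 13.7% after 48 h, 18.4% for RES-A and 6.80% for RES-B. Without thinning these shares were 42.3%, 25.7%, 32.2% and 12.2%, so the order of LNCaP and RES-A turned with depth while RES-B was the lowest both ways. The 5% of cells with most CDKN1A UMIs held 55.1%, 61.4%, 49.1% and 84.0% of them. That share also rises where fewer cells hold a UMI. For CCNE1 in LNCaP it was 100% with a Fano factor of 0.959, so no order of the libraries is read from it.

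Cells with at least 4 CDKN1A UMIs after thinning, a limit set after the data were seen, numbered 23 in LNCaP, 35 after 48 h of enzalutamide, 33 for RES-A and 22 for RES-B, and all their UMIs were used. Of 21 other p53 target genes of at least 10 CPM, 19, 19, 17 and 20 had intervals above 0 against cells with no CDKN1A UMI, and 0 had an interval below 0 in any library. Over all 7459 other genes of that level, 4.28% of intervals lay above 0 and 4.85% below in LNCaP, 4.72% and 4.44% after 48 h of enzalutamide, 2.57% and 3.04% for RES-A and 6.57% and 5.08% for RES-B. MDM2, the ubiquitin ligase that p53 induces against itself, was higher by a log2 ratio of 2.38 (2.13 to 2.62), 2.83 (2.54 to 3.11), 1.51 (1.09 to 1.90) and 3.06 (2.71 to 3.38) in the same order. GDF15, a secreted factor of the TGF-beta family, was higher by 1.31 to 3.17 and BTG2, an antiproliferative p53 target, by 1.34 to 2.95, and these 3 genes were chosen after their values were seen. CCND1 was lower in these cells in LNCaP-ENZ48, at -0.54 (-0.86 to -0.24), and in RES-A, at -0.53 (-0.96 to -0.14), and its intervals spanned 0 in the other 2 libraries. Of 22 E2F target genes, 9, 5, 1 and 0 had intervals above 0 and 0, 0, 2 and 1 had intervals below 0 in the same order of libraries. G1 was called in 60.9%, 80.0%, 66.7% and 95.5% of the CDKN1A-rich cells, against 71.7%, 81.7%, 65.7% and 73.2% of cells with none. In RES-B the CDKN1A-rich cells were shallower, with a median of 9541 UMIs against 12311, and the part of depth in this was not tested.

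**Figure D5:**
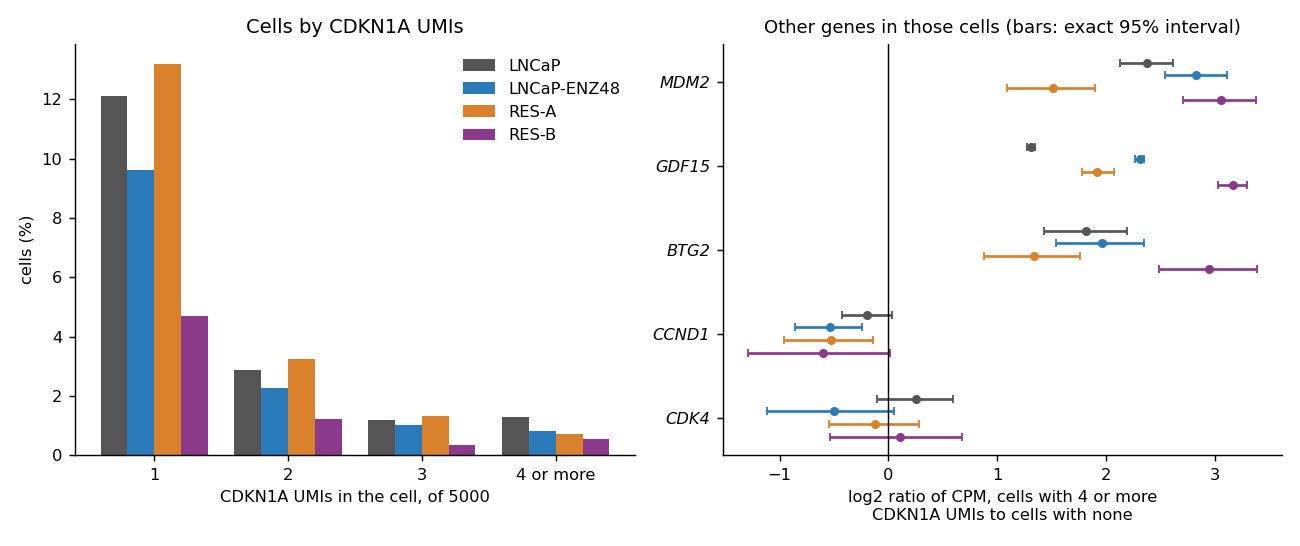
Left, percent of cells (vertical axis, from 0) with 1, 2, 3 or at least 4 CDKN1A UMIs among 5000, by library, with cells at 0 left out. Right, log2 ratio of CPM of 5 genes between cells with at least 4 CDKN1A UMIs and cells with none, with exact 95% intervals for counting error. MDM2, GDF15 and BTG2 lie to the right of 0 in all 4 libraries, from 1.31 to 3.17, and CDK4 intervals span 0 in all 4.

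The rest of the pathway was described by lists, each limited to its genes of 10 CPM or more on average. Over all genes of that level, 1.01% were higher and 3.22% lower by 1.5-fold in LNCaP-ENZ48 against LNCaP. The shares were 11.3% and 11.5% in RES-A and 14.2% and 8.26% in RES-B against LNCaP, and 12.2% and 5.83% in RES-B against RES-A. For 21 p53 targets the median log2 ratio in RES-B against LNCaP was -0.64, where that of all genes was 0.11, and 12 were lower and 0 higher by 1.5-fold. In RES-A against LNCaP 6 were lower and 1 higher with a median of -0.26 (all genes 0.020), in LNCaP-ENZ48 1 was lower and 0 higher with a median of -0.29 (all genes -0.074), and in RES-B against RES-A 7 were lower and 1 higher with a median of -0.29 (all genes 0.089). At the ends of the list in RES-B against LNCaP were GDF15 at -3.74 and PHLDA3, an inhibitor of AKT, at -1.88, and TP53INP1 at 0.41 and TRIAP1 at 0.12.

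For 22 E2F targets, the genes of DNA replication that lie downstream of the G1 kinases, the median was 0.65 (all genes 0.020) in RES-A against LNCaP with 12 higher and 0 lower. It was 0.25 (all genes 0.11) in RES-B with 7 higher and 0 lower, and -0.39 (all genes -0.074) in LNCaP-ENZ48 with 0 higher and 4 lower. In RES-B against RES-A it was -0.36 (all genes 0.089), with 1 higher and 5 lower. The highest in RES-A were TK1, a thymidine kinase, with 110 CPM against 38.8 in LNCaP, and PCNA, the sliding clamp of DNA polymerases, with 123 against 50.6. The lowest were RRM1, a subunit of ribonucleotide reductase, at -0.33 (-0.41 to -0.25) and TYMS, thymidylate synthase, at -0.11 (-0.17 to -0.039). The share of cells called S was highest in RES-A (16.9%) and lowest in LNCaP-ENZ48 (8.20%), as was this list. In RES-B that share was below LNCaP, at 10.8% against 11.8%, while the median of the list was above 0. The S phase list behind the calls holds genes of this list, such as PCNA and TYMS, so the calls and the list are not independent. The part of phase in these levels was not tested.

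Of 17 partners and regulators of the G1 kinases, 3 were lower than LNCaP by 1.5-fold after 48 h of enzalutamide, 2 in RES-A and 2 in RES-B, and 0 were higher, with medians of -0.12, -0.10 and -0.080 (all genes -0.074, 0.020 and 0.11). In RES-B against RES-A 1 was higher and 1 lower, with a median of 0.029 (all genes 0.089). In RES-B against LNCaP the lowest were CDKN2D, an INK4 inhibitor, from 29.8 to 15.7 CPM at -0.93 (-1.05 to -0.80), and CCNH, the cyclin of the CDK-activating kinase, at -0.63 (-0.69 to -0.56). The highest were CDC34, a ubiquitin-conjugating enzyme, at 0.50 (0.41 to 0.59) and SKP1, a subunit of SCF ligases, at 0.42 (0.40 to 0.45).

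Of 8 pocket protein and E2F genes, 0 were beyond 1.5-fold in LNCaP-ENZ48, 1 was lower in RES-A, and in RES-B 1 was higher and 1 lower, with medians of -0.11, -0.017 and 0.042 against LNCaP (all genes -0.074, 0.020 and 0.11). In RES-B against RES-A 1 was higher and 0 lower, with a median of 0.11 (all genes 0.089). RB1, the gene of the retinoblastoma protein, was at 19.4 CPM in RES-B against 9.82 in LNCaP, a log2 ratio of 0.98 (0.83 to 1.14), followed by E2F4 at 0.17 (0.047 to 0.30). TFDP1, the binding partner of E2F proteins, was the lowest at -0.78 (-0.86 to -0.69), with E2F5 at -0.38 (-0.55 to -0.21) next. Of 15 output genes of the MAPK pathway, DUSP4 alone reached a mean of 10 CPM. DUSP4, a phosphatase of MAP kinases, was at 43.3 CPM in LNCaP, 22.2 after 48 h of enzalutamide, 8.88 for RES-A and 0.799 for RES-B. Among the other genes of the list, SPRED1 had that order too, at 3.35, 3.29, 2.56 and 1.88 CPM. SPRY2, an inhibitor of the same pathway, did not, at 0.0996, 0.0164, 1.10 and 1.14 CPM. Both were chosen after their values were seen.

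For the 3 members of at least 10 CPM with the widest range over the libraries, the genes closest in pattern were found by the root mean square difference of mean-centred log2 CPM over the 4 libraries, among 7459 genes. Closest to CCND1 were TESMIN (0.037), C22orf39 (0.037) and EPHX2 (0.041), and 53 genes lay within 0.1. TESMIN is itself a neighbour of CCND1 on chromosome 11, starting at 68707440. Closest to CDK4 were ANKRD26 (0.022), UBE2T (0.028) and PHB (0.040), with 124 genes within 0.1. Closest to CDKN1A were GTF2E2 (0.12), RUFY3 (0.12) and SNHG8 (0.15), and 0 genes lay within 0.1. With 4 points a close pattern is frequent, and these genes are given as a description.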

How the data were processed

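Single-cell RNA-seq libraries (10x Genomics 3′ v3) of 4 LNCaP groups were used. Per the labels and methods, the authors made UMI counts with Cell Ranger 3.0.2 on GRCh38; the deposited counts per gene and cell are raw. Members and gene lists were chosen with earlier results of these data known.

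Cells were kept by the study's limits per library (LNCaP 3000 to 7000 genes, 16000 to 50000 UMIs and under 15% mitochondrial; others 1500 to 5000 genes, 5000 to 25000 UMIs and under 15%, 17% or 20%). No doublet caller was run. UMIs were summed over cells; p-values were not computed with 1 library per group. A count of 0 was set to 3 UMIs in ratios across all genes, neighbours and lists; members with a count of 0 got no ratio. Phases were called in scanpy 1.11.5 (41 S and 54 G2/M genes) on thinned cells. Scaling alternatives used edgeR 4.0.16 and DESeq2 1.42.0. Coordinates are from GENCODE 44, which held 33113 of the 33538 gene IDs. Named pathway genes are the 2 highest and 2 lowest of each list in 1 comparison. Ratios, intervals and thinning were tested on simulated data.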

Additional observations from a re-analysis of the deposited data

Results flagged for a closer look

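CDK4 lay on opposite sides of the LNCaP level in different libraries. Its log2 ratio was -0.26 (-0.31 to -0.20) in LNCaP-ENZ48, 0.60 (0.54 to 0.65) in RES-A and 0.19 (0.14 to 0.25) in RES-B. CDK6 did the same, at -0.93 (-1.79 to -0.10) in LNCaP-ENZ48, from 21 UMIs, and 2.14 (1.59 to 2.72) in RES-A. In cells without MKI67 or TOP2A UMIs the CDK6 interval of LNCaP-ENZ48 spanned 0, at -0.68 (-1.77 to 0.42). CDKN1A was higher in cells with a MKI67 or TOP2A UMI in LNCaP, at 0.61 (0.32 to 0.89), and lower in them in RES-B, at -0.46 (-0.82 to -0.11). Without thinning these were 0.23 and -0.20. CDKN1A was likewise higher in cells called S than in cells called G1 in LNCaP (0.63) and LNCaP-ENZ48 (0.49) and lower in RES-A (-0.43), or 0.71, 0.40 and -0.24 without thinning. What drew attention in each case was that libraries lay on opposite sides of 0 with intervals that left 0 out. For CDKN1A these intervals are too narrow, since they leave out its spread among cells (Fano factors of 1.76 to 2.95 after thinning). With 1 library per group the difference between libraries was not tested in any of these.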

How the results depend on the processing

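With 1 library per group there is no replicate to leave out, the intervals hold counting error only, and doublets were not removed. No paired analysis was possible because each group has 1 library and no test was run. TMM and DESeq2 scaling moved the median of all genes by 0.10 in LNCaP-ENZ48 against LNCaP and by -0.11 and -0.10 in RES-B against LNCaP. Of the member ratios recomputed, 226 in all kept cells and 303 in cells without MKI67 or TOP2A UMIs stayed within the main interval. Another 24 and 21 moved out of it. A further 2, with main intervals that left 0 out, changed sign. These were CCND1 in LNCaP-ENZ48 against LNCaP, at 0.050 under TMM and 0.056 under DESeq2. Some ratios with main intervals that spanned 0 also changed sign and are outside this count of 2. Among them were CDKN1B in LNCaP-ENZ48 against LNCaP and CCNE2 in RES-B against RES-A, both under TMM and DESeq2. Under TMM the members past 1.5-fold in RES-A against LNCaP were 0 higher and 2 lower, and under DESeq2 0 were higher, CDK4 being at 0.54 under TMM. At 2-fold, RES-A held 0 members higher and 0 lower than LNCaP, and RES-B held 1 lower. At 1 CPM the members lower were 1 in LNCaP-ENZ48 and 3 in RES-B against RES-A, and those higher were 5 in RES-A and 3 in RES-B against LNCaP. The share of all genes past 1.5-fold in LNCaP-ENZ48 was 1.54% higher and 2.10% lower under TMM, 1.62% and 2.04% under DESeq2, and 2.72% and 5.34% at 1 CPM, where 9.34% were lower in RES-B against RES-A. At 2-fold the shares were 0.335% higher and 0.576% lower in LNCaP-ENZ48, 3.71% and 4.24% in RES-A, 4.73% and 3.12% in RES-B, and 3.46% and 1.72% in RES-B against RES-A. The cause of these moves under TMM and DESeq2 was not tested.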
